A study of Mus musculus with 4 samples.

Results

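The proteasome subunit genes were read from expression arrays of mouse pancreatic cancer cells that had been exposed to halofuginone or to vehicle. Members were all genes whose name in the scanner files is Psm, a letter from a to g and a number, which gave 47 of the 36918 gene names on the array. Each gene was represented by its brightest probe. The members comprised 7 core alpha subunits (Psma1, Psma2, Psma3, Psma4, Psma5, Psma6 and Psma7), 7 constitutive core beta subunits (Psmb1, Psmb2, Psmb3, Psmb4, Psmb5, Psmb6 and Psmb7), 3 immunoproteasome beta subunits (Psmb8, Psmb9 and Psmb10) and 2 tissue-restricted core subunits (Psma8 and Psmb11). They further comprised 6 ATPases of the 19S cap (Psmc1, Psmc2, Psmc3, Psmc4, Psmc5 and Psmc6), 11 other subunits of the cap (Psmd1, Psmd2, Psmd3, Psmd4, Psmd6, Psmd7, Psmd8, Psmd11, Psmd12, Psmd13 and Psmd14) and 3 chaperones of cap assembly (Psmd5, Psmd9 and Psmd10). The remaining members were 3 activators (Psme1, Psme3 and Psme4), the inhibitor Psmf1 and 4 chaperones of core assembly (Psmg1, Psmg2, Psmg3 and Psmg4).

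The study has 4 arrays, 1 for each combination of line and treatment: K6 and K5 cells given halofuginone at 100 nM for 24 hours, and K6 and K5 cells given DMSO as control. All cells are of C57BL/6 origin and are labelled as pancreatic cancer, and the sources used here do not say what separates K6 from K5 or whether each is 1 clone. The series title concerns Nrf2, gemcitabine and Aldh3a1, and the design sets treated cells against control cells within each line. Nothing states that the samples were separate cultures. With 1 array for each line and treatment, the spread behind each p-value is the difference between the K6 and K5 responses, moderated by the spread over all genes. That spread may be technical, and a true difference between the lines in response cannot be told apart from it. Among the 6 epithelial markers examined, which include Krt8, Krt18, Krt19 and Cdh1, all 6 were well above background on all 4 arrays, whereas 3 of 4 acinar markers (Cpa1, Prss1 and Amy2a5) were above background on none and the other, Cela1, was above it on all 4. Of 6 fibroblast and 3 endothelial markers, 0 and 0 were well above background on all 4 arrays.

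The proteasome degrades proteins tagged with ubiquitin. Its core is a barrel of stacked rings, with alpha subunits that gate the entry and beta subunits that hold the active sites inside, and the 19S cap recognises, unfolds and feeds in substrates. Interferon replaces the 3 catalytic beta subunits by immunoproteasome forms and adds the activator built from Psme1 and Psme2, and both changes alter the peptides available to MHC class I. When proteasome activity is short, the transcription factor encoded by Nfe2l1 raises many constitutive subunit genes together through antioxidant-type response elements. Halofuginone blocks prolyl-tRNA synthetase, which lowers the supply of charged tRNA and activates the amino acid response.

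The start regions of 4 members are shown because they carry motifs of these control routes and stand on both sides of the comparison between immune-type and constitutive subunits. Each covers 120 bases before to 30 bases after the transcription start in RefSeq on GRCm38.p6, is written on the strand of its gene, and has the motif in capitals. Psme1 lies at chr14:55578374-55578523 on the plus strand, Psmb8 at chr17:34198075-34198224 on the plus strand, Psmb5 at chr14:54617966-54618115 on the minus strand, and Psmb6 at chr11:70525237-70525386 on the plus strand. The capitals mark an interferon-stimulated response element on the opposite strand at positions 10 to 19 after the start in Psme1, a gamma-activated site at -97 to -89 in Psmb8, and antioxidant response elements at -47 to -39 in Psmb5 and -9 to -1 in Psmb6.
Psme1: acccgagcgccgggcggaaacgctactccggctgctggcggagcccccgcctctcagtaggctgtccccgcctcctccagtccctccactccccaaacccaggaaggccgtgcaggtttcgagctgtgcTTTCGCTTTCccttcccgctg
Psmb8: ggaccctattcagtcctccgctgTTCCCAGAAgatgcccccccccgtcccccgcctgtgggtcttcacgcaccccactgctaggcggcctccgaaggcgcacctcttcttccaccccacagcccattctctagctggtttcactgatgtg
Psmb5: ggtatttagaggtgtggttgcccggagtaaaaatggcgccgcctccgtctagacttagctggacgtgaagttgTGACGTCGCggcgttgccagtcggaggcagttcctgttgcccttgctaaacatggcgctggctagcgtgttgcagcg
Psmb6: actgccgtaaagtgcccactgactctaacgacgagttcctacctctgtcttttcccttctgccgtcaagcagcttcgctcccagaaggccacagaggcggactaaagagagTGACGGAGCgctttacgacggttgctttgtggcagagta

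Each motif was counted by itself, on either strand, in the same window of every gene. Among the 39 members with an entry, the 300-base window from 250 bases before to 50 bases after the start held the antioxidant response element (TGACNNNGC) in 6, or 15.4%, against 14.0% of 27025 genes. The genes were Psmb5, Psmb6, Psmc6, Psmd9, Psmd12 and Psme4. The interferon-stimulated response element (GAAA, any 2 bases, GAAA) was found in 5 members, or 12.8%, against 3.99% of all genes, and those 5 were Psme1, Psmb3, Psmd4, Psmd9 and Psmg4. The gamma-activated site (TTCNNNGAA) was found in Psmb8, Psmd2 and Psmg1, or 7.69%, against 9.55% of all genes. The C/EBP-ATF response element (TGATGNAA), a motif of the amino acid response, was found in Psmd13 alone, or 2.56%, against 4.51% of all genes. The window of Psmb10 held none of the 4 motifs, and each of the 4 windows shown held 1 of them. These matches are a description of the letters and were not tested as sites.

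After halofuginone the constitutive core and cap genes lay within 2-fold of their control level in both lines, with 1 exception, and the few members with larger differences lay mostly outside the core and cap. Of the 47 members, 43 were well above background on all 4 arrays and were tested, and 0 passed the threshold of an adjusted p of 0.05 in limma, where 8.96% of all 19093 genes tested did (3.88% higher and 5.08% lower). At an unadjusted p under 0.05 there were 7 members, 4 higher (Psmc2, Psme3, Psmg2 and Psmg3) and 3 lower (Psmb10, Psmd10 and Psme1), against 34.1% of all genes tested. The median log2 change of the 43 was 0.07, with an interquartile range of -0.24 to 0.39, against a median of 0.01 and an interquartile range of -0.57 to 0.60 over all genes tested. Of the 43, 36 (83.7%) stayed within 2-fold in both lines, against 56.9% of all genes tested. The SD of the log2 change was 0.68 over the 43 members and 1.16 over all genes tested. These comparisons were not matched for signal. All 43 members were well above background on all 4 arrays, as were 15896 of the 19093 genes tested, and the part of signal level in the narrower range was not tested.

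These counts rest on 2 arrays a treatment and a fit with 1 residual degree of freedom, in which the lowest SE of any log2 change was 0.26 and the smallest change called among all genes was 1.48 in size. With normexp background correction, with a filter that asks for signal on all 4 arrays, or with an intensity trend in the variance, 7, 7 and 8 members passed the threshold, against 28.3%, 25.2% and 22.0% of all genes.

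**Figure D1:**
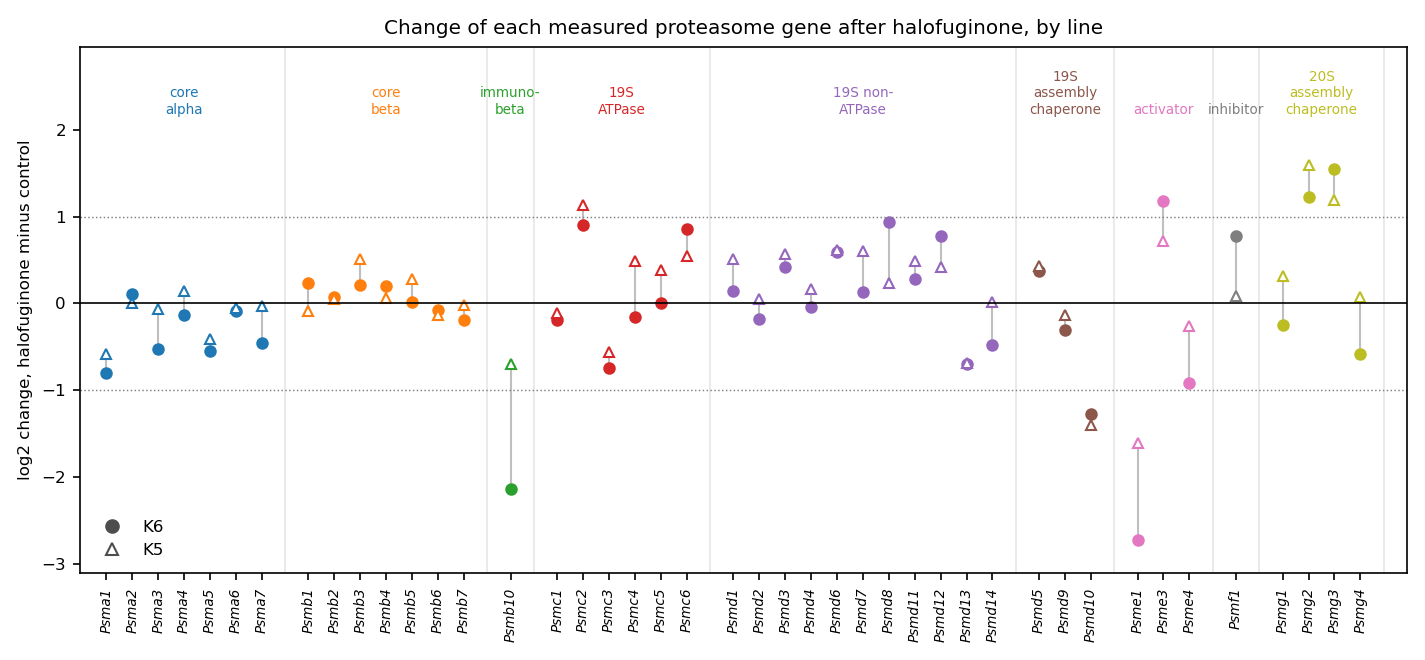
Log2 change after halofuginone (halofuginone minus control, y axis) of each of the 43 measured members, grouped by subunit class, with a filled circle for K6, an open triangle for K5 and dotted lines at a 2-fold change. The core and cap subunits lie mostly between the dotted lines, and Psme1 and Psmd10 are below and Psmg2 and Psmg3 above them in both lines.

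Within single lines, where no test was possible, 3 members were at least 2-fold higher after halofuginone in K6 (Psme3, Psmg2 and Psmg3, against 16.4% of all genes tested) and 3 in K5 (Psmc2, Psmg2 and Psmg3, against 14.1%). At least 2-fold lower were 3 members in K6 (Psmb10, Psmd10 and Psme1, against 16.4%) and 2 in K5 (Psmd10 and Psme1, against 14.9%). In both lines together, 2 members were at least 2-fold higher (Psmg2 and Psmg3, against 8.59% of all genes tested) and 2 at least 2-fold lower (Psmd10 and Psme1, against 9.62%). Both halofuginone arrays lay above both control arrays for 13 members and below them for 10 of the 43, against 30% and 28.6% of all genes tested.

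The 7 core alpha subunits, which form the outer rings and the gate of the barrel, had a median log2 change of -0.24 (-0.45 in K6 and -0.05 in K5), and 5 of the 7 had lower signal after halofuginone in both lines. All 7 stayed within 2-fold in both lines and none passed the threshold. Psma1 had the largest difference of the class, with log2 normalized signal of 3.85 in K6 and 4.28 in K5 after halofuginone, against 4.65 in K6 and 4.86 in K5 under control. Its arrays did not overlap between treatments, and its log2 change was -0.69 ± 0.26 (SE, n = 2 arrays a treatment; limma, adjusted p = 0.16). Psma5 followed with a log2 change of -0.48. The smallest was that of Psma4, at 0.0019, with -0.13 in K6 and 0.14 in K5. Its 4 probes with signal on all arrays gave changes from 0.0019 to 0.12.

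The 7 constitutive core beta subunits, which line the inner chamber, had a median log2 change of 0.08 (0.08 in K6 and 0.06 in K5), between -0.10 for Psmb6 and 0.36 for Psmb3. All 7 stayed within 2-fold in both lines, and 4 had higher signal after halofuginone in both lines. The sign of this class median turned with the scaling: it was -0.0035 with quantile normalization, -0.0046 in the authors' deposited table and -0.05 when arrays were scaled on the detected probes. Psmb2 had the smallest change, at 0.07, and Psmb3, the largest, had an adjusted p of 0.39 in limma.

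Psmb5 carries the chymotrypsin-like active site, the main target of proteasome inhibitor drugs. Its log2 normalized signal was 3.51 in K6 and 4.26 in K5 after halofuginone, against 3.50 in K6 and 3.97 in K5 under control. The treatments overlapped, and the log2 change was 0.15 ± 0.26 (SE, 95% interval -0.59 to 0.88; limma, adjusted p = 0.72). Psmb6, the caspase-like subunit, read 5.75 in K6 and 6.11 in K5 after halofuginone, against 5.83 in K6 and 6.24 in K5 under control, a log2 change of -0.10 (95% interval -0.82 to 0.61). Psmb7, the trypsin-like subunit, read 3.29 in K6 and 3.53 in K5 after halofuginone, against 3.49 in K6 and 3.54 in K5 under control, a log2 change of -0.10 (95% interval -0.82 to 0.62). For all 3 catalytic subunits the larger separation was between lines, with the K5 arrays above the K6 arrays. Pseudogenes of Psmb5 and Psmb6 are annotated, so signal from near-identical copies cannot be set apart from theirs.

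The immunoproteasome was represented on the arrays almost entirely by Psmb10. On no array was the probe of Psmb8, which replaces Psmb5, well above background, and its sequence around the start is given above with its gamma-activated site. Its log2 normalized signal, a background reading, was -7.25 in K6 and -7.17 in K5 after halofuginone, against -6.51 in K6 and -6.41 in K5 under control. The probe of Psmb9, which replaces Psmb6, was well above background on 1 of 4 arrays, K6 after halofuginone, where its log2 normalized signal was -4.75. The other readings of Psmb9 were -4.89 in K5 after halofuginone, against -5.71 in K6 and -4.32 in K5 under control. The K6 halofuginone value is below the lowest signal counted as well above background on the K6 control array, -4.25, so no fold is given. Tap1, the peptide transporter gene that lies between Psmb9 and Psmb8 on chromosome 17 with no other protein-coding gene between them, was well above background on 0 of the 4 arrays.

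Psmb10, which replaces the trypsin-like Psmb7, had clear signal and was lower after halofuginone. Its probe lies at chr8:108459677-108459736 on mm9, and its log2 normalized signal was 1.74 in K6 and 3.44 in K5 after halofuginone, against 3.87 in K6 and 4.14 in K5 under control. The treatments did not overlap, but the K5 halofuginone array stood much closer to its control than the K6 array did: the log2 change was -2.13 in K6 and -0.70 in K5. The mean log2 change of -1.42 ± 0.44 (SE, 95% interval -2.65 to -0.18) had an adjusted p of 0.118 in limma. The difference between the lines in this response, -1.44 on the log2 scale, was not tested. Set against its constitutive counterpart, the change of Psmb10 minus that of Psmb7 was -1.94 in K6 and -0.68 in K5.

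The activators differed in the sign of their changes. Psme1 encodes the alpha subunit of the interferon-inducible activator of the core, and it had the largest change of any member. Its probe lies at chr14:56200194-56200253 on mm9, and its log2 normalized signal was 0.69 in K6 and 2.64 in K5 after halofuginone, against 3.41 in K6 and 4.25 in K5 under control. Both halofuginone arrays were below both control arrays. The log2 change was -2.72 in K6 and -1.61 in K5, with a mean of -2.16 ± 0.38 (SE, 95% interval -3.22 to -1.11), so that control signal was 4.48-fold that after halofuginone. The adjusted p in limma was 0.0511, just outside the threshold.

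Psme2, the partner of Psme1 and a neighbour on chromosome 14, is not a gene name in the files. A pair of probes named Psme2b, a near-identical copy on chromosome 11, list a transcript of Psme2 as well, and their signal cannot be divided between the genes. This gene is outside the member rule and was chosen after its values were seen. Its log2 normalized signal was 3.88 in K6 and 5.14 in K5 after halofuginone, against 5.27 in K6 and 5.53 in K5 under control. The arrays did not overlap, and the log2 change was -1.39 in K6 and -0.39 in K5 (mean -0.89 ± 0.36, SE; limma, adjusted p = 0.17). As for Psmb10 and Psme1, the K6 change was the larger in size.

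Psme3 encodes the nuclear activator, which forms without Psme1 and is not part of the interferon response. Its probe lies at chr11:101184289-101184348 on mm9, and its log2 normalized signal was 3.23 in K6 and 2.48 in K5 after halofuginone, against 2.05 in K6 and 1.76 in K5 under control. Both halofuginone arrays were above both control arrays, with a log2 change of 1.18 in K6 and 0.72 in K5. The mean was 0.95 ± 0.28 (SE, 95% interval 0.17 to 1.73; limma, adjusted p = 0.107). A second, dimmer probe of Psme3, annotated with another transcript, did not give this direction in K6: its log2 change was -0.12 in K6 and 1.06 in K5, with a mean of 0.47. The change of Psme1 minus that of Psme3 was -3.90 in K6 and -2.32 in K5.

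Psme4 encodes a large nuclear activator linked to the degradation of acetylated histones. Its log2 normalized signal was 2.48 in K6 and 3.04 in K5 after halofuginone, against 3.40 in K6 and 3.29 in K5 under control. The treatments did not overlap, and the log2 change was -0.92 in K6 and -0.25 in K5 (mean -0.58 ± 0.30, SE; limma, adjusted p = 0.26). A second probe gave a mean change of -0.41.

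Because whole cultures were measured, fewer cells of a type and less RNA per cell cannot be told apart. Markers of other cell types moved with treatment, immune markers among them in the direction of Psme1 and Psmb10. Of 9 such markers, 6 were well above background on all 4 arrays, and the macrophage markers Adgre1 and Lyz2 were well above background on none. The summed normalized signal of the 9 was 10.5 in K6 and 14.1 in K5 after halofuginone, against 28.9 in K6 and 31.7 in K5 under control. This sum adds linear signal, and its fall came mostly from Cd14. The log2 normalized signal of Cd14 was -0.0042 in K6 and 1.53 in K5 after halofuginone, against 4.03 in K6 and 4.26 in K5 under control. Of the 6 markers tested, 5 had lower signal in both lines and 1 higher. The sum of the epithelial markers was 973 in K6 and 965 in K5 after halofuginone, against 693 in K6 and 905 in K5 under control. Cd14 and Cd68, which mark monocytes and macrophages, fell by 3.38 and 1.79 on the log2 scale (limma, adjusted p = 0.0399 and 0.0441), while Ptprc, the common leukocyte marker, had a log2 change of 0.61. The acinar marker Cela1 fell by 2.53 (limma, adjusted p = 0.037), and the endothelial marker Kdr, well above background on 3 of 4 arrays, rose by 2.61 (limma, adjusted p = 0.0366). The part of these markers in the changes of Psme1 and Psmb10 was not tested.

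**Figure D2:**
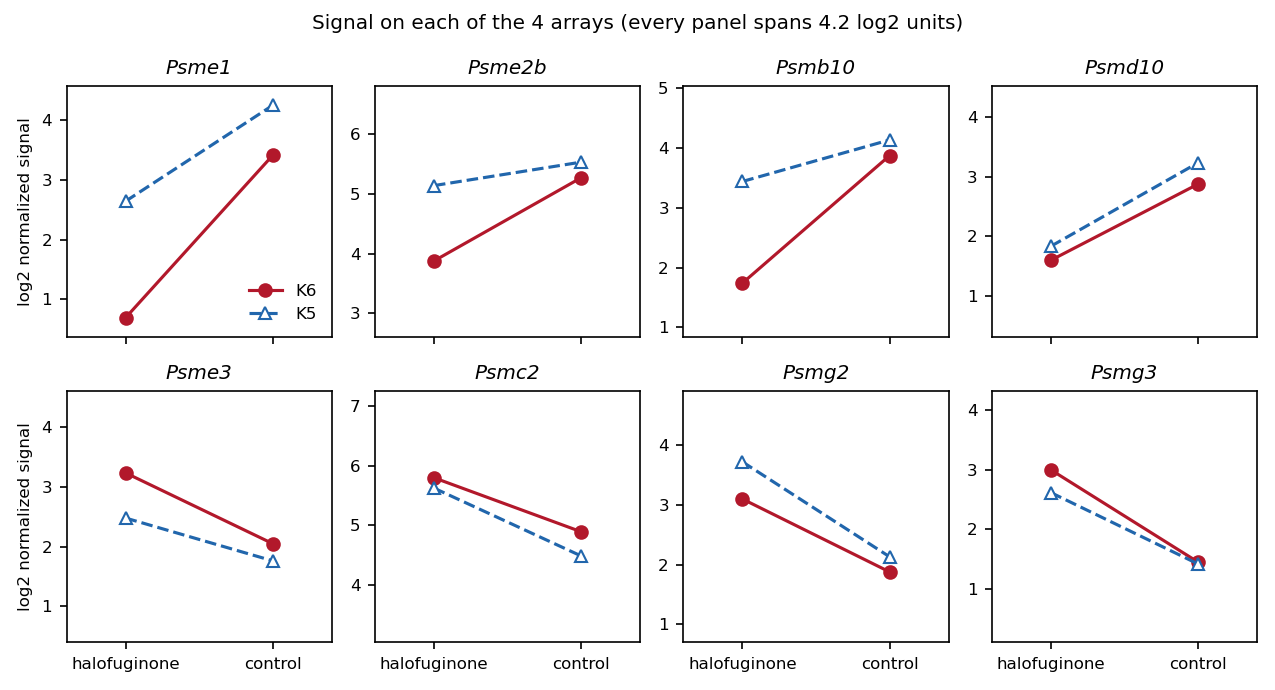
Log2 normalized signal (y axis, each panel spanning 4.2 log2 units) of Psme1, Psme2b, Psmb10, Psmd10, Psme3, Psmc2, Psmg2 and Psmg3 in halofuginone and control cells, with filled circles and solid lines for K6 and open triangles and dashed lines for K5. The halofuginone points lie below the control points of both lines in the upper row and above them in the lower row, and K6 has the steeper line for Psme1, Psme2b and Psmb10.

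The 19S cap showed a mixture of small changes. Its 6 ATPases, the ring that unfolds substrates and opens the gate, had a median log2 change of 0.18 (-0.07 in K6 and 0.44 in K5), with 3 higher and 2 lower in both lines and Psmc4 opposite. Psmc2 had the largest change, and its values on every array are given because its mean change was over 2-fold, which was seen before it was chosen. Its probe lies at chr5:21309546-21309602 on mm9, and its log2 normalized signal was 5.80 in K6 and 5.62 in K5 after halofuginone, against 4.89 in K6 and 4.49 in K5 under control. The treatments did not overlap, and the log2 change was 0.90 in K6 and 1.14 in K5 (mean 1.02 ± 0.26, SE; limma, adjusted p = 0.086). Psmc6 was next, with a mean change of 0.70 and a second probe at 1.05. Psmc1 was the smallest at -0.15. Psmc3 had the lowest value of the ATPases at -0.65, and its 3 probes lay between -0.65 and -0.56.

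The 11 other cap subunits include ubiquitin receptors, scaffolds and the deubiquitinase Psmd14. They had the highest median among the core and cap classes, 0.37 (0.14 in K6 and 0.42 in K5). In K5 alone the median of the ATPases was slightly higher, at 0.44. All 11 stayed within 2-fold in both lines, and 7 were higher in both. For 5 of them, Psmd3, Psmd6, Psmd7, Psmd11 and Psmd12, both halofuginone arrays lay above both control arrays, and for none did both lie below. The shares over all genes tested were 30% and 28.6%, so with 11 genes these counts say little. Psmd6 had the highest change at 0.60 ± 0.26 (SE; limma, adjusted p = 0.19), almost equal in K6 (0.59) and K5 (0.62), and its 3 probes gave 0.60 to 0.74. Psmd13 had the largest in size and was the only one lower in both lines, at -0.69 in K6 and -0.69 in K5 (limma, adjusted p = 0.15), with a second probe at -0.77. Psmd2, a scaffold that docks shuttle factors, had the smallest change at -0.06.

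Taking core and cap together, 31 constitutive subunits had a median log2 change of 0.07, 30 of the 31 (96.8%) stayed within 2-fold in both lines, and 15 were higher, 10 lower and 6 opposite between lines. Psmc2 was the exception to the 2-fold range, in K5.

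Of the 4 members with at least a 2-fold difference of 1 sign in both lines, 3 were assembly chaperones. Psmd10 was lower, whereas Psmg2 and Psmg3 were higher, and none of them passed the threshold. Among all genes tested, 8.59% were at least 2-fold higher and 9.62% lower in both lines. With so few genes, the count says little about chaperones as a class. Psmd10, also known as gankyrin, escorts the ATPase Psmc4 during cap assembly. Its probe lies at chrX:137483484-137483543 on mm9, and its log2 normalized signal was 1.60 in K6 and 1.84 in K5 after halofuginone, against 2.88 in K6 and 3.23 in K5 under control. Both halofuginone arrays were below both control arrays, and the log2 changes of the lines were close, -1.28 in K6 and -1.40 in K5. The mean of -1.34 ± 0.26 (SE, 95% interval -2.05 to -0.62) had an adjusted p of 0.0569 in limma, with control signal 2.53-fold that after halofuginone. The other cap chaperones were nearer to 0, Psmd5 at 0.40 and Psmd9 at -0.22.

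The 4 chaperones of core assembly pair as Psmg1 with Psmg2 and Psmg3 with Psmg4 to build the alpha ring. By its brightest probe, 1 of each pair was over 2-fold higher in both lines. Psmg2 had log2 normalized signal of 3.10 in K6 and 3.72 in K5 after halofuginone, against 1.88 in K6 and 2.13 in K5 under control. The arrays did not overlap, and the mean log2 change was 1.41 ± 0.27 (SE, 95% interval 0.65 to 2.16; limma, adjusted p = 0.0574), which is 2.65-fold. A second probe of Psmg2 gave 1.39, but another, annotated with a different transcript, gave 0.24. That was the only member whose probes differed by more than 1 in log2 change, among 23 with several probes on all 4 arrays.

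Psmg3, whose probe lies at chr5:140299626-140299685 on mm9, had log2 normalized signal of 3.00 in K6 and 2.62 in K5 after halofuginone, against 1.45 in K6 and 1.42 in K5 under control. Again the arrays did not overlap, and the mean log2 change was 1.37 ± 0.27 (SE, 95% interval 0.62 to 2.12; limma, adjusted p = 0.0588), which is 2.58-fold. A second, dimmer probe of Psmg3, well above background on 3 of 4 arrays, did not give this rise in K6. Its log2 change was -0.05 in K6 and 2.79 in K5. The partners of Psmg2 and Psmg3 did not share their difference in both lines: the log2 change of Psmg1 was -0.24 in K6 and 0.32 in K5, and that of Psmg4 was -0.58 in K6 and 0.07 in K5. The median of the 4 was 0.70. The inhibitor gene Psmf1, which binds the core in vitro, had a log2 change of 0.77 in K6 and 0.08 in K5.

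Psma8, the alpha subunit of testis, and Psmb11, the beta subunit of the thymus, were well above background on 0 of the 4 arrays. Psmb11 is the direct neighbour of Psmb5 on chromosome 14, which was well above background on all 4.

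**Figure D3:**
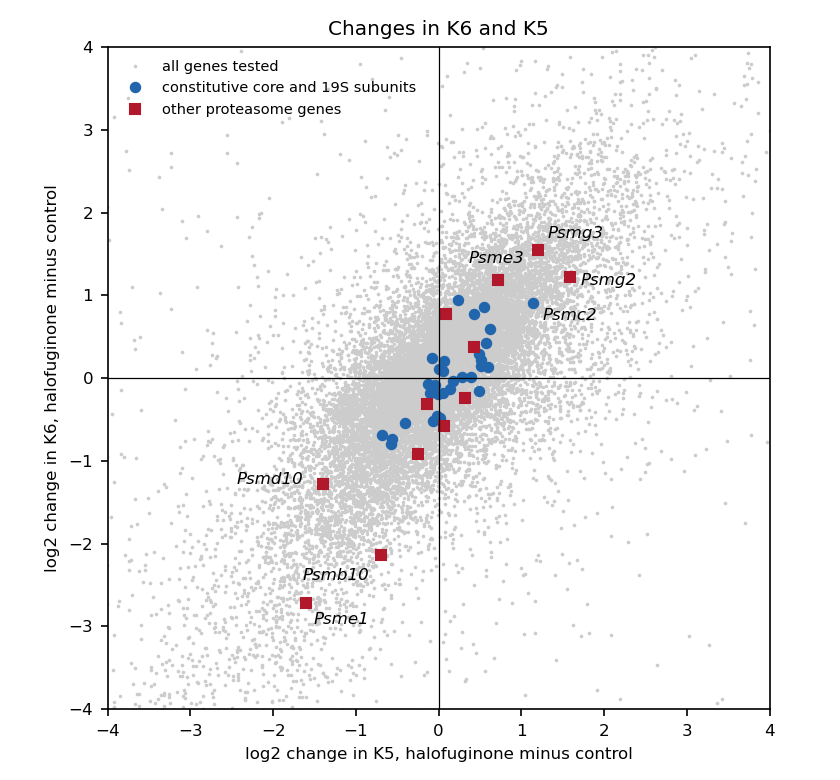
Log2 change after halofuginone in K6 (y axis) against that in K5 (x axis) for all 19093 genes tested (grey), the 31 constitutive core and 19S subunits (blue circles) and the other measured proteasome genes (red squares). The blue circles gather around the origin, Psme1, Psmb10 and Psmd10 lie to the lower left, Psmg2, Psmg3, Psme3 and Psmc2 to the upper right, and 486 genes lie outside the plotted range of 4 log2 units either way.

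The plot of K6 against K5 changes shows the members as a compact group within a wide cloud of genes not matched to them for signal. Across the 43, 20 were higher and 15 lower after halofuginone in both lines and 8 had opposite signs, where all genes tested gave 7393 higher, 7252 lower and 4448 opposite. Each change within a line comes from 1 array a treatment, so the order of single members within the compact group carries no error estimate.

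Between lines, 1 member stood apart at an unadjusted p, and more members had both arrays lower than higher in K6. In the same limma fit, 0 of 43 members passed the threshold for K6 against K5, where 0.173% of all genes tested did (33 genes). That share is too low for the 0 to say anything about the members. At an unadjusted p under 0.05 there was 1 member, against 15.5% of all genes tested. That member was Psme1, with a K6 minus K5 difference of -1.39 ± 0.38 on the log2 scale (SE; adjusted p = 0.25), which was -1.95 under halofuginone and -0.84 under control. The median K6 minus K5 difference of the members was -0.15 (-0.30 under halofuginone and -0.06 under control), against -0.03 over all genes tested. Both K6 arrays lay above both K5 arrays for 6 members and below them for 11, against 14% and 14.8% of all genes tested. No member was at least 2-fold different under both treatments, as 3.14% of all genes tested were in the higher and 3.47% in the lower direction.

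The core subunits made up most of those lower in K6. Both K6 arrays lay below both K5 arrays for 3 of 7 core alpha subunits (Psma4, Psma5 and Psma6) and 4 of 7 core beta subunits (Psmb4, Psmb5, Psmb6 and Psmb7), with class medians of -0.19 and -0.15. Among the 11 non-ATPase cap subunits the counts ran the other way, with 4 above (Psmd1, Psmd2, Psmd8 and Psmd13) and 1 below (Psmd4). Their median was -0.06. Over all genes tested the shares were 14.8% below and 14% above, so with 7 or 11 genes a class these counts say little. Some separations were small: the difference under control was -0.02 for Psma4 and -0.06 for Psmb7. Psmd13 had the highest K6 minus K5 difference of any member, 0.71 under halofuginone and 0.71 under control (limma, adjusted p = 0.32). Psmb5 had the lowest of the core, at -0.75 under halofuginone and -0.47 under control (limma, adjusted p = 0.38). Psmb10 differed by -1.70 under halofuginone and by -0.26 under control.

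**Figure D4:**
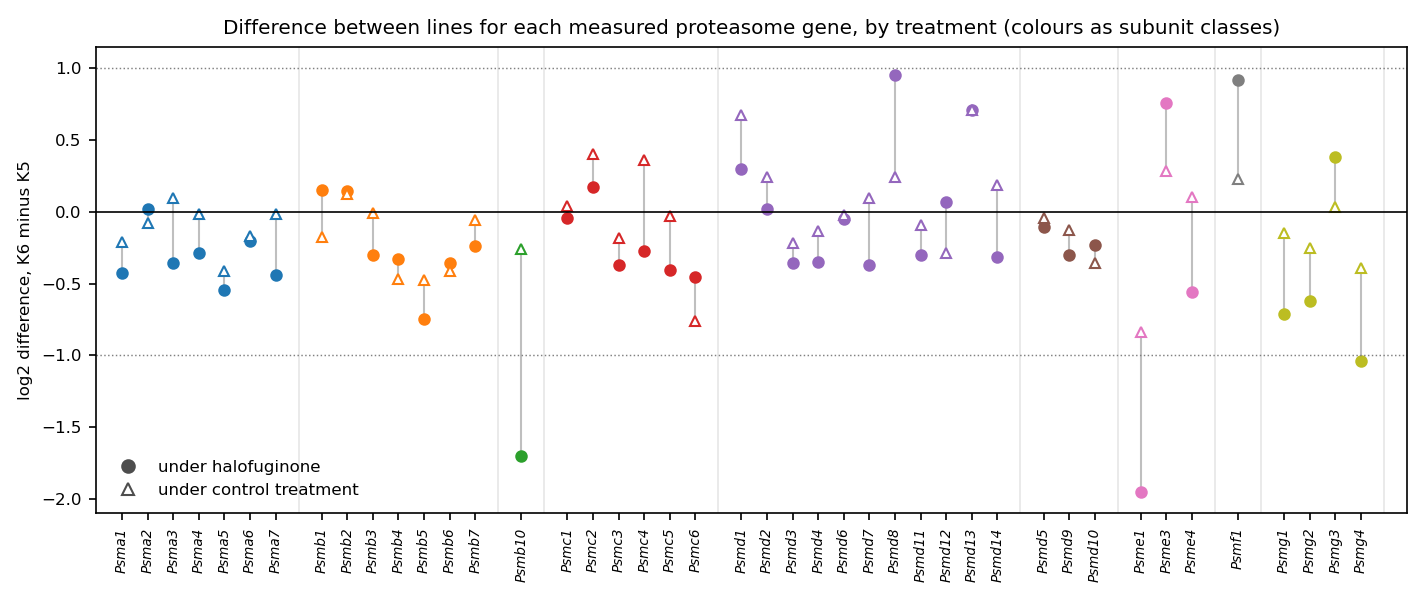
Log2 difference between lines (K6 minus K5, y axis) of each of the 43 measured members, with a filled circle for halofuginone, an open triangle for control and dotted lines at a 2-fold difference. Most points lie between 0.5 and -0.5, and Psme1, Psmb10 and Psmg4 pass the 2-fold line under halofuginone, with no member passing it under control.

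The genes that work with the proteasome were read in the same fit. Of 11 assembly and associated factors, 1 rose, against 3.88% of all genes tested, and 9 had higher signal in both lines, against 7393 of 19093. The median log2 change of the 11 was 0.48. Zfand2a, which encodes an arsenite-inducible partner of the cap, rose by 1.93 ± 0.26 on the log2 scale (SE; limma, adjusted p = 0.0425). Akirin2, needed for import of proteasomes into the nucleus, had a change of 1.96 (limma, adjusted p = 0.0537).

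Of 11 ubiquitin genes and shuttle factors, 1 rose, against 3.88% of all genes tested. It was Ubqln1, which carries ubiquitinated proteins to the cap, with a log2 change of 1.72 ± 0.26 (SE; limma, adjusted p = 0.0454). The shuttle factor Rad23b had a change of 1.25 (adjusted p = 0.0642), and the median of the 11 was 0.34. Of 10 genes of proteasome control and aggregate stress, 0 rose and 2 fell, against 3.88% and 5.08% of all genes tested. These were the heat shock genes Hspa1a and Hspa1b, near-identical copies that share signal, which fell by 2.22 and 2.02 on the log2 scale (limma, adjusted p = 0.0425 and 0.0423). The aggregate receptor gene Sqstm1 had a change of 1.69 (adjusted p = 0.0578). Of the 10, 6 had higher signal in both lines and 3 lower, 1 had opposite signs, and the median was 0.22. Nfe2l1, named after its values were seen, had a log2 change of 0.90 in K6 and 1.18 in K5 (mean 1.04; limma, adjusted p = 0.0854).

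Of 12 genes of antigen processing, 9 were tested and 2 fell, against 5.08% of all genes tested, with a median of -0.24. In both lines 3 had lower signal and 2 higher, and 4 had opposite signs. The 2 higher, named after their values were seen, were the class I heavy chain genes H2-K1 and H2-D1, with changes of 0.57 and 0.16 (limma, adjusted p = 0.27 and 0.68). Tapbp, the loading chaperone of MHC class I, fell by 2.18 ± 0.30 on the log2 scale (SE; limma, adjusted p = 0.0436). Irf1, a transcription factor that induces immunoproteasome genes, fell by 2.48 ± 0.36 (SE; adjusted p = 0.0446), with log2 normalized signal of 0.41 in K6 and 1.44 in K5 after halofuginone, against 3.40 in K6 and 3.41 in K5 under control. Tap2, the second peptide transporter gene and the direct neighbour of Psmb8, had a change of -1.98 (adjusted p = 0.0506). It was well above background on 3 of 4 arrays. Its K6 halofuginone signal of -4.76 lay close to the lowest counted as well above background on that array, -5.01, so the size of its K6 change is uncertain. In Irf1, Tap2 and Tapbp, as in Psmb10 and Psme1, the K6 change was larger in size than the K5 change, a difference that was not tested.

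The arrays held 59305 spots each and no saturated spot. Spots well above background made up 54.0% in K6 and 53.1% in K5 after halofuginone, against 48.6% in K6 and 47.2% in K5 under control. With 4 arrays in all, precision is limited by their number.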

How the data were processed

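Per the labels' protocols, total RNA gave Cy3-labelled cRNA for 1-colour Agilent arrays. Per the file headers, Agilent Feature Extraction 10.7.1.1 gave the intensity of each spot; version 9.5.1.1 stands in the submitters' processing notes. The processed signal as deposited is a linear intensity, background-subtracted and detrended within an array and not normalized between arrays. The authors' deposited value table, also a linear intensity with a common median of 32.97434 in each column, served as an alternative; how it was made was not given in the sources used here. Its columns are named by sample, and each correlated most highly with the scanner values of its own array (0.9989 to 0.9997). The other deposited columns used are flags, 0 or 1, for signal above background and for outliers. All 4 arrays shared 1 slide and 1 scan, so no batch could be examined.

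From these, control and outlier spots were left out (301 probes were lost), spots of a probe were averaged, and the log2 processed signal was centred on its 75th percentile over the array's spots, giving the log2 normalized signal. The brightest probe stood for a gene, and a gene was tested where that probe was well above background on 2 or more arrays. limma 3.58.1 in R 4.3.3 was fitted with treatment and line (1 residual and 2.97 prior degrees of freedom), with Benjamini-Hochberg adjustment over all 19093 genes and a threshold of 0.05. The script was tested on simulated data. The numbers 5 and 6 pair the arrays because they name the same cells, and the K6 minus K5 differences of the treatments correlated across genes at 0.50. Levels are compared within a probe, never between probes. Probe positions are those of the files on mm9, whereas promoters come from RefSeq on GRCm38.p6, and the exon of each probe was not analysed here. All 47 members had an accession in RefSeq's gene table, with 0 symbols differing.

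The members and lists were chosen with earlier results of these data known. Values on every array are given for members past the threshold and members at least 2-fold changed in 1 direction in both lines. They are also given for the 3 catalytic pairs and the activators. Psma1 and Psmc2 are exceptions to this rule, given on every array as the largest changes of their classes. Other members are given by range, with the largest and smallest changes of each class. An associated gene is named where it passed the threshold or was at least 2-fold changed in both lines. Alternatives covered the scaling, the background correction, the source of values, the probe, the filter, the variance prior, the block and leaving out a line. The value of 1 immune marker is not reported here.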

Additional observations from a re-analysis of the deposited data

Results flagged for a closer look

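For 8 members the log2 changes after halofuginone had opposite signs in K6 and K5, which is what marked them. The difference was not tested for any of them, since each line has 1 array a treatment. The change in K6 less that in K5 came to -0.65 for Psmg4, -0.64 for Psmc4, -0.56 for Psmg1, -0.50 for Psmd14, -0.27 for Psma4, -0.23 for Psmd2, -0.21 for Psmd4 and 0.32 for Psmb1, all on the log2 scale. For 7 of the 8 the K6 change was the lower, Psmb1 being the other. Within a line, their changes were between -0.58 and 0.24 in K6 and between -0.08 and 0.48 in K5.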

How the results depend on the processing

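No member passed the threshold for halofuginone with quantile normalization, with arrays scaled on detected probes or with the mean over probes. Nor did any without a filter or with no replicate block. Members at an unadjusted p under 0.05 in limma numbered 8, 10, 9, 17 and 5 in these settings, in that order. Of all genes, quantile normalization called 8.98%, the mean over probes 3.06% and the other 3 settings 0, so those 3 say nothing about the members. Lower calls numbered 2 (Psmd10 and Psme1) with median centring and with the authors' deposited table, 1 (Psme1) with the 75th percentile taken over probes, a setting chosen after seeing the data, and 3 (with Psmb10) with normexp correction and with the filter on all 4 arrays, where 4 were higher (Psmc2, Psme3, Psmg2 and Psmg3). The intensity trend gave the same 4 higher and 4 lower, with Psmc3 added. Called were 4.65% of members against 13.0% of all genes with median centring, 4.65% against 10.5% with the authors' table, and 2.33% against 10.5% with the percentile over probes. Between lines, normexp gave 1 call, Psme1, lower in K6, where 1210 of 19086 genes were called. The signs of these members held in the 7 alternatives that give other values on all 4 arrays: Psme1 lay between -2.29 and -2.06, Psmb10 between -1.54 and -1.33, Psmd10 between -1.46 and -1.25, Psmg2 between 1.01 and 1.46, Psmg3 between 1.25 and 1.42, Psmc2 between 0.90 and 1.25 and Psme3 between 0.71 and 1.01.

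The core beta median was -0.0035 with quantile normalization, 0.0229 with median centring, -0.0472 on detected probes, -0.0046 in the authors' table, 0.14 with normexp, 0.15 with the mean over probes and 0.13 with the percentile over probes. On detected probes the median of all members was -0.0586 and that of all genes tested -0.12. The K6 minus K5 median of the non-ATPase cap subunits was 0.15 with the mean over probes. At least 2-fold lower in K6 were 5 members with quantile normalization and in the authors' table, and 5 were at least 2-fold higher in K5 with the mean over probes. Without replicate 5 or 6, medians ranged from 0.14 to 0.42 for the non-ATPase cap subunits, 0.49 to 0.76 for the core chaperones, -0.0403 to 0.0693 for all members and 0.0564 to 0.0803 for core beta. Leaving out a line leaves no residual degrees of freedom, so calls could not be recomputed. Causes of these shifts were not tested. Psmb8 and Psmb9 were well above background on 0 and 1 of 4 arrays, so no fold is given for them.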
